A study of Mus musculus with 12 samples.

Results

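The transforming growth factor beta (TGF-beta) genes described here were 10 listed genes out of 56923 in a table of RNA-seq counts from mouse back skin: the ligand genes Tgfb1, Tgfb2, Tgfb3 and Inhba, the latency and activation genes Ltbp1 and Thbs1, the receptor genes Tgfbr1 and Tgfbr2, and the feedback and target genes Smad7 and Tgfbi. Tgfb1 was chosen by its measured difference between the genotypes in the response to imiquimod, so its values are given as a description with no test, and it is left out of every count of genes called. The other 9 were listed around it. All 10 passed the filter on low counts, with 148 (Inhba) to 14701 (Tgfbr2) reads per gene and library, among 18529 genes tested.

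The 12 libraries came from back skin of female mice of the C57BL/6 background, 8 to 10 weeks old, with 3 libraries in each of 4 groups. WT littermates and mice labelled Lcn2-/- had the shaved back treated each day for 6 days with vehicle cream (WT control and Lcn2-/- control) or with 5% imiquimod cream (WT IMQ and Lcn2-/- IMQ). Imiquimod (IMQ) is a TLR7 agonist that produces psoriasis-like inflammation of mouse skin, and Lcn2 encodes lipocalin 2, an iron-siderophore-binding protein of neutrophils and epithelia. The repository labels give the genotype as a knockdown and, per sample, the control treatment as none; the vehicle is named in the treatment text and the knockout in the study's methods. The Lcn2-/- mice came from the Jackson Laboratory. The sources used here do not say whether each library was made from a different mouse; a library is called a mouse below, and the p-values measure the spread between these libraries, which would be partly technical if any shared a mouse. The comparison asks how the skin lesion differs when Lcn2 is disrupted.

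Library totals lay between 16448226 and 28592110 counts, and levels are given as CPM, the count relative to a library total scaled by TMM. Lcn2 itself was counted in every library. It stood at 6.28, 8.64 and 4.57 CPM in the WT control mice, 61.2, 183.0 and 76.1 CPM in the WT IMQ mice, 10.5, 9.22 and 15.9 CPM in the Lcn2-/- control mice, and 34.2, 29.9 and 49.8 CPM in the Lcn2-/- IMQ mice. The control mice labelled Lcn2-/- were thus above all WT control mice, and gene counts do not show whether the reads came from a part left by the deletion, so "Lcn2-/-" is used here as the label given. The first principal component held 52.0% of the variance and separated all IMQ from all control mice. WT IMQ replicate 2 stood apart within its group in Lcn2, Tgfb1 and Thbs1, and WT control replicate 2 and Lcn2-/- control replicate 1 had the lowest hair follicle marker sums of the control mice. The extraction text names retina, but summed CPM of 6 retina markers was at most 2.11 per library, against 9381 or more for 8 basal keratinocyte markers after IMQ.

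As background, TGF-beta ligands are secreted bound to their own propeptide, and latent TGF-beta binding proteins such as LTBP1 tether this latent complex to the extracellular matrix. Integrins, proteases and thrombospondin 1 release the active ligand, which brings together the type II receptor (TGFBR2) and the type I receptor (TGFBR1) and leads to phosphorylation of SMAD2 and SMAD3. SMAD7 is an inhibitor induced by the same signal, and TGFBI is a secreted matrix protein named for its induction by TGF-beta. In skin the pathway restrains keratinocyte growth, drives matrix production by fibroblasts and takes part in the hair cycle and in repair.

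The ligand genes are described first. Tgfb1 (GRCm38 chr7:25687002-25705077, plus strand) encodes the isoform made widely by immune and stromal cells. It stood at 67.0, 62.8 and 40.0 CPM in the WT control mice, 47.7, 87.2 and 50.04 in the WT IMQ mice, 38.1, 35.4 and 33.8 in the Lcn2-/- control mice, and 99.6, 117.2 and 127.1 in the Lcn2-/- IMQ mice. All Lcn2-/- IMQ mice were above every other mouse, all Lcn2-/- control mice were below every other mouse, and the WT groups overlapped. Group means were 56.6 ± 14.5, 61.7 ± 22.2, 35.7 ± 2.18 and 114.6 ± 13.9 CPM (SD, n = 3). The fitted log2 difference between IMQ and control was 0.12 in WT and 1.68 in Lcn2-/- mice, a 3.21-fold higher level in the latter, and the difference of these responses, on which the gene was chosen, was 1.56. The difference between the Lcn2-/- and WT groups was 0.90 after IMQ and -0.66 in controls on the log2 scale. Without WT IMQ replicate 2 the WT value was -0.22, the IMQ difference 1.23 and the difference of responses 1.90.

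Tgfb2 (GRCm38 chr1:186622792-186705989, minus strand) encodes an isoform known from epithelium and the hair follicle. It stood at 20.8, 30.0 and 15.4 CPM in the WT control mice, 13.2, 13.2 and 11.96 in the WT IMQ mice, 18.1, 12.9 and 16.2 in the Lcn2-/- control mice, and 23.3, 17.5 and 16.6 in the Lcn2-/- IMQ mice. Every WT IMQ mouse was below every WT control mouse and below every Lcn2-/- IMQ mouse, while the Lcn2-/- groups overlapped. Tgfb2 fell by 0.79 ± 0.23 (log2, SE) with IMQ in WT mice (edgeR quasi-likelihood test, Benjamini-Hochberg adjusted p = 0.0262). It differed by 0.28 ± 0.23 in Lcn2-/- mice (adjusted p = 0.406), and the difference of the responses was 1.07 ± 0.33 (adjusted p = 0.0932). The WT call was lost when WT control replicate 1 or 2 or WT IMQ replicate 1 or 3 was left out, with adjusted p-values of up to 0.102 and a difference of -0.50 without WT control replicate 2. Between the IMQ groups Tgfb2 differed by 0.58 ± 0.23 (adjusted p = 0.142). The difference of the responses was called in 1 of 12 fits that left out a mouse, without WT control replicate 3 (adjusted p = 0.0343).

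Promoter windows of Tgfb1, Tgfb2 and Tgfbi are shown because Tgfb1 was chosen for its genotype difference and Tgfb2 and Tgfbi had the smallest unadjusted p-values of the ligand and target genes for the difference of the responses. The sequences are RefSeq windows on GRCm38.p6, from 250 bases before to 50 bases after the start, on the gene's strand (Tgfb1 chr7:25686752-25687051, plus; Tgfb2 chr1:186705940-186706239, minus; Tgfbi chr13:56609336-56609635, plus). Capitals mark a GC box (GGGCGG), a SMAD element (CAGAC) or a TATA box (TATAAA), each on either strand.
Tgfb1: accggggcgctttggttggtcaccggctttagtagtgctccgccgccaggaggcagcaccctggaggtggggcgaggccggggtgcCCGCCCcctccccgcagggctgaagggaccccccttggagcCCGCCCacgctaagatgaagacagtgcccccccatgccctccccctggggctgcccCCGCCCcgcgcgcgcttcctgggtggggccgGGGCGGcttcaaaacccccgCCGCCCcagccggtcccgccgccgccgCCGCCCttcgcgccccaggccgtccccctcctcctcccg
Tgfb2: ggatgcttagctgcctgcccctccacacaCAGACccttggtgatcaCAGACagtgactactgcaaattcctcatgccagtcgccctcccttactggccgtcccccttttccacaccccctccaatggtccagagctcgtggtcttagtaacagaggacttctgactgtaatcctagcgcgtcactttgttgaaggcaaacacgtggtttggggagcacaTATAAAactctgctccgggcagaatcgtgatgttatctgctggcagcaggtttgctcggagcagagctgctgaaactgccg
Tgfbi: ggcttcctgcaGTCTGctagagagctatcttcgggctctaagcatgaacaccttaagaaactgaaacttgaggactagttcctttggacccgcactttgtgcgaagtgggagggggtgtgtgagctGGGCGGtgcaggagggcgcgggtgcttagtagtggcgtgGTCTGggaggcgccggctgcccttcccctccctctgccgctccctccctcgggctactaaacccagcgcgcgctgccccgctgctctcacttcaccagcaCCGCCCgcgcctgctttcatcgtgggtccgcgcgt
The Tgfb1 window held 6 GC boxes, no SMAD element and no TATA box, with a GC content of 77.0%. The Tgfb2 window held 2 SMAD elements and 1 TATA box and no GC box, with a GC content of 54.3%. The Tgfbi window held 2 GC boxes and 2 SMAD elements, with a GC content of 63.3%. Among 32851 windows of the same length, 35.7% held a GC box and 0.886% held 6 or more, 49.6% held a SMAD element, 13.6% a TATA box, and the median GC content was 52.7%. The SMAD palindrome GTCTAGAC (0.213% of windows) and the AP-1 element TGACTCA (5.2% of windows) were in none of the 9 windows of the 7 listed genes that had a window; on its other strand the SMAD element reads GTCTG, and no full motif lies within another. A motif match describes letters and was not tested for binding.

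Tgfb3 (GRCm38 chr12:86056745-86079041, minus strand), the remaining TGF-beta isoform, made in stroma and epithelium, stood at 35.6, 31.6 and 50.8 CPM in the WT control mice, 26.7, 32.3 and 29.7 in the WT IMQ mice, 42.7, 32.0 and 35.7 in the Lcn2-/- control mice, and 35.0, 44.1 and 33.1 in the Lcn2-/- IMQ mice. The WT groups overlapped by 1 mouse and the Lcn2-/- groups overlapped. The IMQ difference was -0.41 ± 0.19 in WT mice (adjusted p = 0.122) and 0.02 ± 0.19 in Lcn2-/- mice (adjusted p = 0.944). Every Lcn2-/- IMQ mouse was above every WT IMQ mouse, by 0.34 ± 0.19 on the log2 scale (adjusted p = 0.264). Ttll5 lies opposite Tgfb3 with 4307 counts in all libraries against 8572 for Tgfb3; the annotation gives 0 shared exon bases, and the sources used here do not state whether strand was used in counting.

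Inhba (GRCm38 chr13:16011851-16031621, plus strand) encodes the beta A subunit of activin A, a ligand of the same superfamily. It stood at 14, 8.43 and 14.8 CPM in the WT control mice, 12.8, 14.99 and 19.8 in the WT IMQ mice, 19.3, 15.5 and 12.4 in the Lcn2-/- control mice, and 9.04, 9.53 and 14.3 in the Lcn2-/- IMQ mice. All groups overlapped. Its IMQ difference was 0.36 ± 0.27 in WT mice (adjusted p = 0.346) and -0.52 ± 0.27 in Lcn2-/- mice (adjusted p = 0.177). Inhba was thus the ligand gene whose fitted difference was negative in Lcn2-/- mice, and the difference of the responses was -0.88 ± 0.38 (adjusted p = 0.187).

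**Figure D1:**
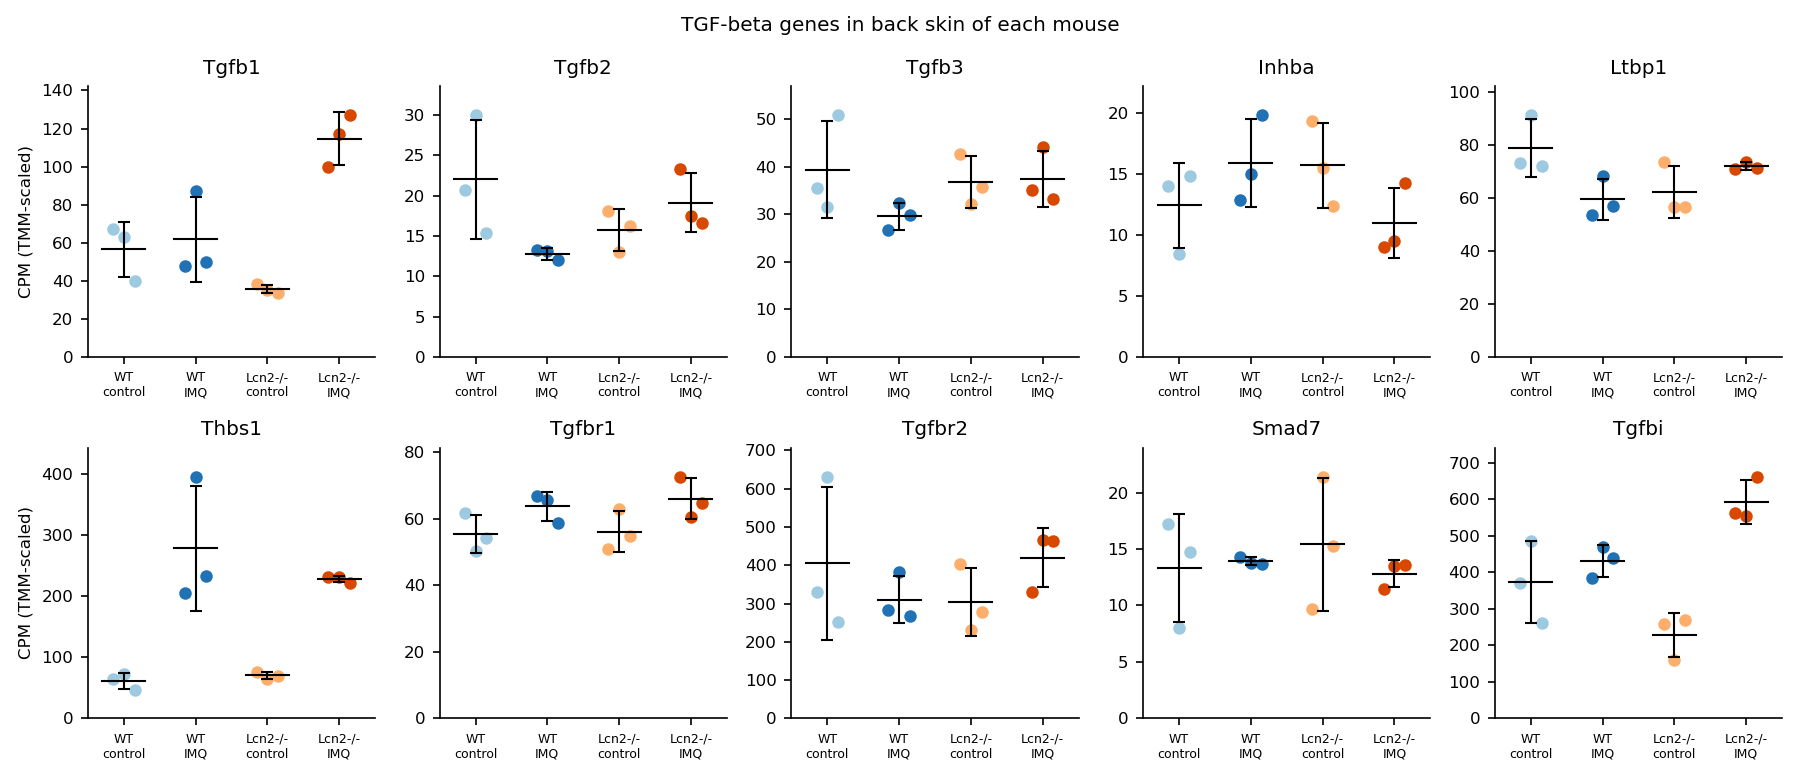
Each panel plots the CPM of 1 gene (vertical axis, TMM-scaled, from 0) in each mouse (points) of the 4 groups, with the mean (line) and SD (bars), n = 3. The Lcn2-/- IMQ mice lie at 99.6 to 127.1 CPM for Tgfb1 and 552.8 to 662.0 CPM for Tgfbi, above all other mice, and both IMQ groups lie above both control groups for Thbs1.

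Levels of different genes were compared per kilobase of exon. The summed level of Tgfb1, Tgfb2 and Tgfb3 was 26.6 ± 0.926 CPM per kb in WT control, 23.2 ± 5.18 in WT IMQ, 20.7 ± 2.35 in Lcn2-/- control and 37.1 ± 2.67 in Lcn2-/- IMQ mice (SD, n = 3). Tgfb1 made up 48.5%, 46.2% and 31.0% of this sum in the WT control mice, 48.2%, 59.4% and 47.8% in the WT IMQ mice, 32.4%, 37.5% and 33.4% in the Lcn2-/- control mice, and 57.9%, 59.2% and 66.6% in the Lcn2-/- IMQ mice. Its share was therefore higher in every Lcn2-/- IMQ mouse than in every Lcn2-/- control mouse, while the WT groups overlapped and 1 WT IMQ mouse lay within the Lcn2-/- IMQ range. Tgfb3 held 50.6% to 54.2% in Lcn2-/- control and 25.9% to 33.2% in Lcn2-/- IMQ mice, and 34.6% to 58.7% in WT control and 32.8% to 42.3% in WT IMQ mice. Tgfb2 was the smallest share in all mice, at 7.58% to 19.2%. These shares follow in part from the choice of Tgfb1 and depend on the gene length used: with the longest transcript in place of all exons, the mean share of Tgfb1 was 57.3%, 67.1%, 50.03% and 74.9% in the order WT control, WT IMQ, Lcn2-/- control, Lcn2-/- IMQ.

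**Figure D2:**
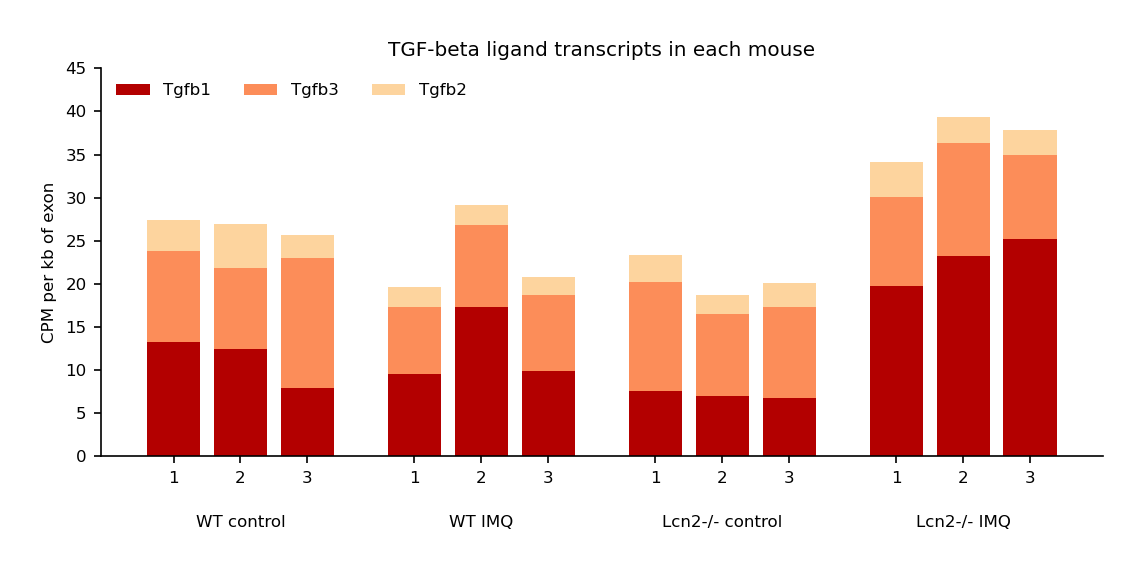
Stacked bars give the CPM per kb of exon of Tgfb1, Tgfb3 and Tgfb2 (vertical axis) in each mouse, numbered by replicate within the 4 groups. The Lcn2-/- IMQ bars reach 34.1 to 39.3 CPM per kb and all other bars 18.7 to 29.1, and between the Lcn2-/- groups most of the difference lies in the Tgfb1 segment.

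Of the 2 latency and activation genes, Thbs1 had the largest fitted IMQ response among the tested genes in both genotypes. Thbs1 (GRCm38 chr2:118111876-118127133, plus strand) encodes thrombospondin 1, a matricellular protein of platelets, macrophages, keratinocytes and stroma that can activate latent TGF-beta. It stood at 65.0, 71.8 and 46.6 CPM in the WT control mice, 205.2, 396.1 and 233.4 in the WT IMQ mice, 75.3, 65.2 and 70.1 in the Lcn2-/- control mice, and 231.8, 231.2 and 222.2 in the Lcn2-/- IMQ mice. Every IMQ mouse was above every control mouse. Thbs1 rose 4.55-fold with IMQ in WT mice (log2 2.19 ± 0.23, adjusted p = 5.52e-05) and 3.25-fold in Lcn2-/- mice (log2 1.70 ± 0.23, adjusted p = 0.000487). These responses differed by -0.48 ± 0.31 (adjusted p = 0.361), and the IMQ groups by -0.28 ± 0.22 (adjusted p = 0.427). Leaving out WT IMQ replicate 2, the highest mouse, left the WT rise at 1.84. Of 4 platelet markers, Gp1bb had at most 3 counts in any library. Of the 3 tested, 1 was called higher in WT and 0 in Lcn2-/- mice, beside 14.2% and 14.1% of all genes, and 0 for the difference of the responses. The part of the platelet markers in the Thbs1 values was not tested.

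Ltbp1 (GRCm38 chr17:75005568-75392512, plus strand), the matrix tether of the latent complex, stood at 73.3, 91.5 and 72.2 CPM in the WT control mice, 53.6, 68.3 and 56.9 in the WT IMQ mice, 73.5, 56.5 and 56.8 in the Lcn2-/- control mice, and 70.9, 73.8 and 71.5 in the Lcn2-/- IMQ mice. Every WT IMQ mouse was below every WT control mouse and below every Lcn2-/- IMQ mouse. Ltbp1 fell by 0.41 ± 0.14 with IMQ in WT mice (adjusted p = 0.0468) and differed by 0.21 ± 0.14 in Lcn2-/- mice (adjusted p = 0.291). The WT call lay close to the threshold: it was lost without WT control replicate 1 or 2 or WT IMQ replicate 1 or 3, with adjusted p-values of up to 0.171. The difference of the responses was 0.62 ± 0.20 (adjusted p = 0.0991) and was called without WT IMQ replicate 2 (adjusted p = 0.0414) or Lcn2-/- control replicate 1 (adjusted p = 0.0494).

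Neither receptor gene was called in any comparison with all 12 mice in edgeR. Tgfbr2 was called in Lcn2-/- mice without the pair of controls low in hair follicle markers (0.71, adjusted p = 0.0286). Tgfbr1 (GRCm38 chr4:47353222-47414931, plus strand), the type I receptor kinase, ranged from 50.3 to 61.6 CPM in WT control, 58.8 to 66.8 in WT IMQ, 50.8 to 62.9 in Lcn2-/- control and 60.5 to 72.7 in Lcn2-/- IMQ mice. Its IMQ difference was 0.20 ± 0.12 in WT mice (adjusted p = 0.23) and 0.23 ± 0.12 in Lcn2-/- mice (adjusted p = 0.17), and these differed by 0.03 ± 0.17. Tgfbr2 (GRCm38 chr9:116084293-116175360, minus strand), the type II receptor that binds ligand first, stood at 330.1, 631.9 and 252.0 CPM in the WT control mice, 282.8, 381.8 and 266.8 in the WT IMQ mice, 402.5, 231.9 and 277.2 in the Lcn2-/- control mice, and 330.6, 465.8 and 462.9 in the Lcn2-/- IMQ mice. The groups overlapped in both genotypes. The IMQ difference was -0.38 ± 0.32 in WT mice (adjusted p = 0.399) and 0.47 ± 0.32 in Lcn2-/- mice (adjusted p = 0.307). The high WT control mouse was replicate 2, and without it the WT difference was 0.09. Per kb of exon, Tgfbr2 was 2.94 to 10.03 times Tgfbr1 across the 12 mice.

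Among the feedback and target genes, Smad7 (GRCm38, plus strand), the inhibitory SMAD, stood at 17.2, 8.0 and 14.7 CPM in the WT control mice, 14.3, 13.8 and 13.7 in the WT IMQ mice, 9.66, 21.4 and 15.2 in the Lcn2-/- control mice, and 11.4, 13.5 and 13.6 in the Lcn2-/- IMQ mice. Both control groups spread around the IMQ mice. Every Lcn2-/- IMQ mouse was below every WT IMQ mouse, with a difference of -0.12 ± 0.30 on the log2 scale (adjusted p = 0.8345). The difference of Smad7 between IMQ and control was 0.07 ± 0.30 in WT mice (adjusted p = 0.895) and -0.26 ± 0.30 in Lcn2-/- mice (adjusted p = 0.548). The lowest control mice were the pair with the lowest hair follicle marker sums, and without them the differences between IMQ and control were -0.20 and -0.52.

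Tgfbi (GRCm38 chr13:56609523-56639562, plus strand) had the highest level of the set per kb of exon in all 4 groups. It stood at 369.9, 486.7 and 261.2 CPM in the WT control mice, 384.9, 470.3 and 437.6 in the WT IMQ mice, 259.0, 159.6 and 268.8 in the Lcn2-/- control mice, and 562.1, 552.8 and 662.0 in the Lcn2-/- IMQ mice. The WT groups overlapped, and every Lcn2-/- IMQ mouse was above every other mouse. Tgfbi rose 2.58-fold with IMQ in Lcn2-/- mice (log2 1.37 ± 0.24, adjusted p = 0.00213) and differed by 0.21 ± 0.23 in WT mice (adjusted p = 0.536). The difference of the responses was 1.16 ± 0.33 (adjusted p = 0.0801), of which a lower control level (-0.70 ± 0.23, adjusted p = 0.639) and a higher IMQ level (0.46 ± 0.23, adjusted p = 0.227) in Lcn2-/- mice each formed part. The difference of the responses was called without WT control replicate 3 (1.36, adjusted p = 0.0288). The rise in Lcn2-/- mice held in all 6 fits that left out a mouse, at 1.17 to 1.497.

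**Figure D3:**
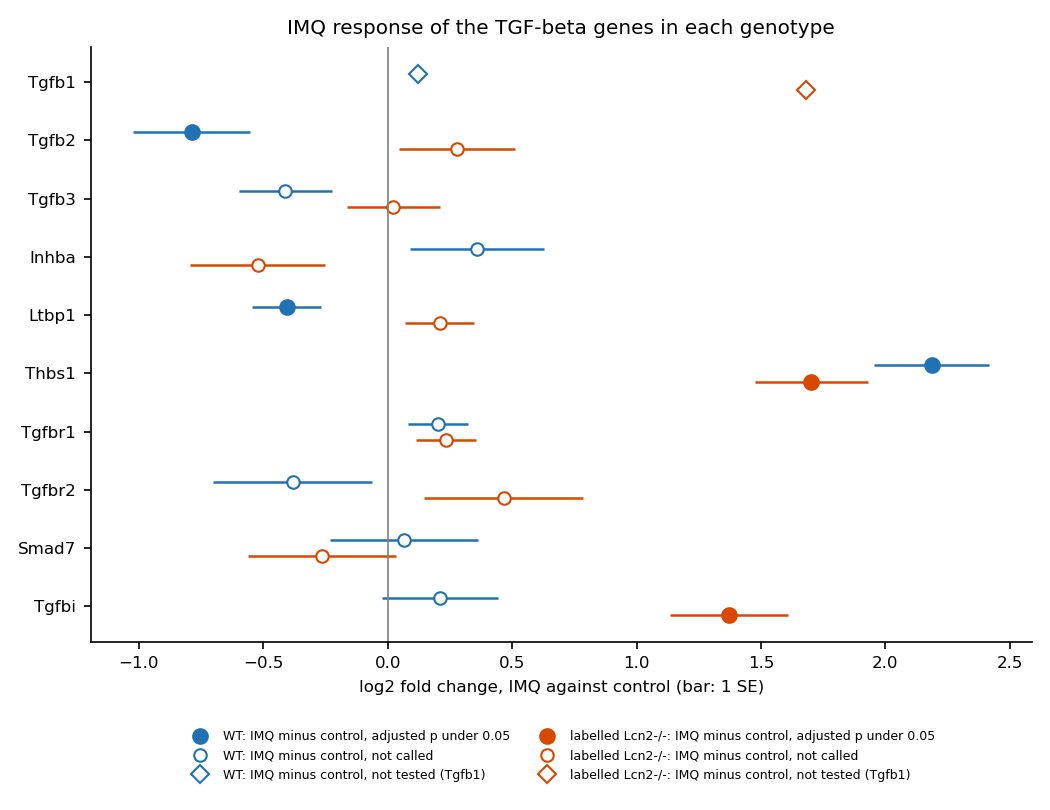
The horizontal axis gives the log2 fold change of IMQ against control for each gene in WT (blue) and Lcn2-/- (orange) mice, with bars of 1 SE; filled points have an adjusted p under 0.05, open points do not, and diamonds mark Tgfb1, which was not tested. Thbs1 is filled in both genotypes (2.19 and 1.70), Tgfb2 (-0.79) and Ltbp1 (-0.41) are filled in WT and Tgfbi (1.37) in Lcn2-/- mice, while the differences of the responses of the last 3 had adjusted p-values of 0.0932, 0.0991 and 0.0801.

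The counts over the 9 tested genes stood against the whole table as follows. With IMQ in WT mice 1 of 9 was called higher, where 14.2% of all genes were, and 2 of 9 lower, where 14.3% of all genes were. With IMQ in Lcn2-/- mice 2 of 9 were called higher (14.1% of all genes) and 0 lower (11.2%). The median log2 difference of the 9 genes was 0.07 in WT and 0.23 in Lcn2-/- mice, beside -0.02 and -0.05 over all genes. Between the IMQ groups 0 of 9 were called, where 2.19% of all genes were higher and 2.6% lower in Lcn2-/- mice. A single gene, Tgfb2, had an unadjusted p under 0.05 by edgeR, beside 27% of all genes, and DESeq2 called 0. Of the 9 genes, Tgfb2, Tgfb3, Ltbp1 and Tgfbi lay higher in Lcn2-/- than in WT IMQ mice without overlap, and Smad7 lower. The share of all genes without overlap was not counted, so no result is read from these separations. Between the control groups 0 of 9 were called (0.0108% of all genes), 2 had an unadjusted p under 0.05 (Ltbp1 and Tgfbi), beside 6.6% of all genes, and DESeq2 called 0. For the difference of the responses 0 of 9 were called by edgeR, beside 1.37% of all genes higher and 0.783% lower. Of the 9, 4 had an unadjusted p under 0.05 by edgeR (Tgfb2, Inhba, Ltbp1 and Tgfbi), beside 24.1% of all genes tested. DESeq2 called 2 of 9 higher, Tgfb2 and Tgfbi, beside 1033 higher and 874 lower of 34774 genes. These 34774 include low-count genes that the edgeR filter left out, so that share cannot be set against those of edgeR.

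Within each group the order of levels per kb of exon was partly fixed. Tgfbi was highest in all groups, at 98.8 ± 29.9 in WT control, 114.3 ± 11.4 in WT IMQ, 60.8 ± 16.0 in Lcn2-/- control and 157.1 ± 16.0 CPM per kb in Lcn2-/- IMQ mice, and it overlapped with the next gene, Tgfbr2, in both control groups with these exon lengths but in neither with the longest transcript. Thbs1 moved from the fifth rank in WT control to the second in WT IMQ mice (10.1 ± 2.14 to 45.8 ± 17.0), where it overlapped with Tgfbr2, and was the third in both Lcn2-/- groups with all exons and the fourth with the longest transcript. In WT control mice it was the sixth with the longest transcript. The rank of Tgfb1 depended on the length used, since its exons together hold 5042 bases and its longest transcript 2573. With all exons Tgfb1 ranked the fourth in both WT groups and in Lcn2-/- IMQ mice and the sixth in Lcn2-/- control mice. With the longest transcript, a length tried after seeing the data, it was the fourth in WT IMQ mice and the third in the other groups. In Lcn2-/- IMQ mice it lay below Thbs1 with all exons (22.7 ± 2.76 and 37.6 ± 0.891 CPM per kb). With the longest transcript it lay above Thbs1 on average, with overlap (44.5 ± 5.41 and 39.1 ± 0.925). No order of Tgfb1 and Thbs1 is therefore given. Tgfb2, Smad7 and Inhba were the lowest 3 in every group, between 1.71 and 3.81 CPM per kb on average, with all exons, and they were also the lowest 3 with the longest transcript.

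Markers of other cell types moved with the groups, and in bulk skin fewer cells of a type and less RNA per cell cannot be told apart. The summed CPM of 8 macrophage markers (Cd68, Adgre1, Csf1r, Mrc1, C1qa, C1qb, C1qc and Cd163, none at 0) was 932.3 to 3955 in WT control, 2116 to 3774 in WT IMQ, 872.9 to 1643 in Lcn2-/- control and 3560 to 4821 in Lcn2-/- IMQ mice. All 8 were called higher with IMQ in Lcn2-/- mice and 1 of 8 in WT mice, beside 14.1% and 14.2% of all genes. Of the same 8, 0 were called for the difference of the responses (1.37% of all genes higher, 0.783% lower). Between the IMQ groups 0 of 8 were called (2.19% and 2.6%). The summed CPM of 9 fibroblast markers was 2727 to 4207, 2080 to 2462, 2605 to 3480 and 3537 to 4315 in the same order of groups. Of these, 6 of 9 were called lower with IMQ in WT mice (14.3% of all genes) and 2 of 9 higher in Lcn2-/- mice (14.1%). For the difference of the responses 0 of 9 fibroblast markers were called. By replicate, the macrophage sum was 2075, 3955 and 932.3 CPM in the WT control and 2255, 3774 and 2116 in the WT IMQ mice. It was 1643, 872.9 and 1052 in the Lcn2-/- control and 3560, 4555 and 4821 in the Lcn2-/- IMQ mice. The part of these markers in the Tgfb1 and Tgfbi values was not tested.

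**Figure D4:**
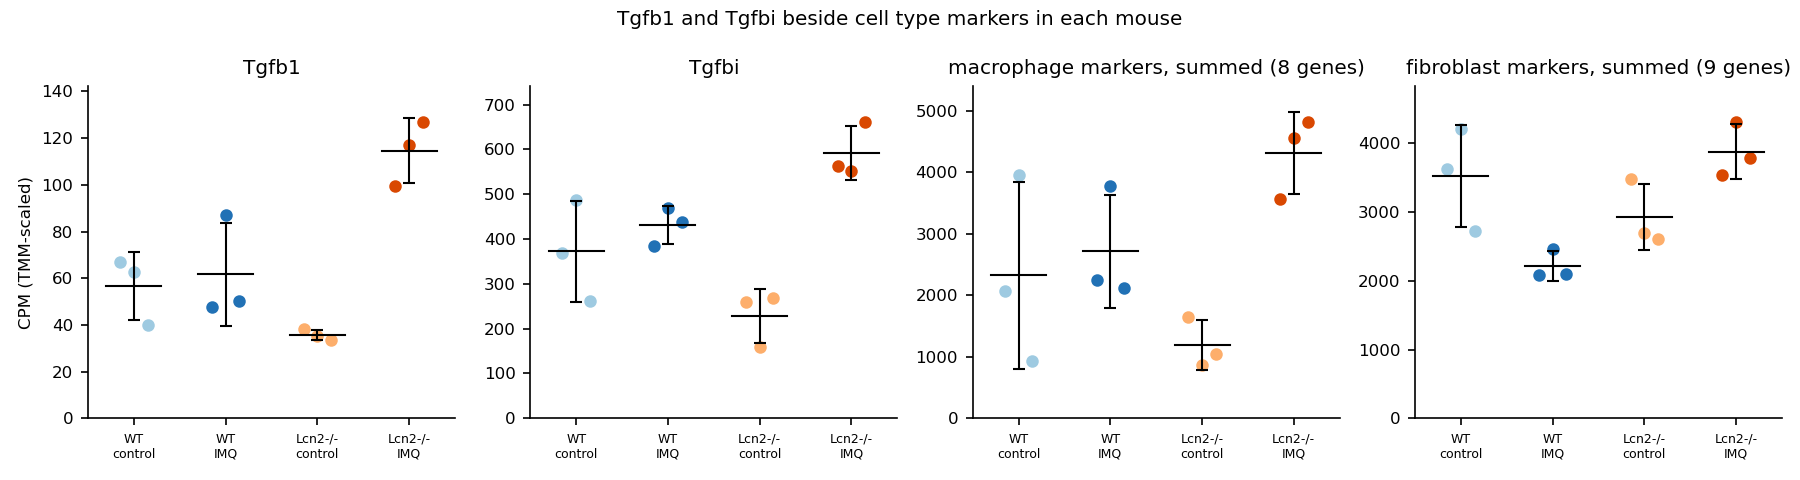
Points give the CPM of Tgfb1 and Tgfbi and the summed CPM of 8 macrophage and 9 fibroblast markers (vertical axes, from 0) in each mouse of the 4 groups, with the mean (line) and SD (bars), n = 3. In the first 3 panels every Lcn2-/- IMQ mouse lies above every Lcn2-/- control mouse, with macrophage sums of 3560 to 4821 and 872.9 to 1643. The WT macrophage sums, 932.3 to 3955 in control and 2116 to 3774 in IMQ mice, overlap with these ranges. For Tgfbi a WT control mouse (261.2 CPM) lies in the Lcn2-/- control range (159.6 to 268.8). For fibroblast markers the WT IMQ mice are the lowest group, at 2080 to 2462.

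Other marker lists were called as follows with IMQ in WT and then in Lcn2-/- mice. Of all genes, 14.2% and 14.1% were called higher and 14.3% and 11.2% lower, in the same order. Neutrophil markers were called higher for 7 of 7 genes in both. Basal keratinocyte markers were higher for 7 and 5 of 8, with Krt15 called lower in both, and suprabasal markers for 5 and 6 of 7. Endothelial markers were higher for 4 and 6 of 8, and mural markers for 2 and 3 of 5, with Cspg4 called lower in both. T cell markers were lower for 5 and 0 of 6, skeletal muscle markers for 6 and 4 of 8, adipocyte markers for 1 and 1 of 6, and hair follicle markers for 4 and 8 of 9. No marker of these lists was called for the difference of the responses, beside 1.37% of all genes higher and 0.783% lower. The hair follicle sum was 26.8 to 7498 CPM in controls and 27.4 to 84.6 CPM after IMQ, so that WT control replicate 2 (26.8) and Lcn2-/- control replicate 1 (234.0) lay near the IMQ mice. Without this pair, Thbs1 was still called in WT mice, Tgfb2 (-0.51) and Ltbp1 (-0.30) were not and Tgfb3 (-0.56, adjusted p = 0.0457) was, and in Lcn2-/- mice Thbs1, Tgfbi and Tgfbr2 (0.71, adjusted p = 0.0286) were called.

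The wider pathway was described by 6 lists of 105 further genes, of which 104 were tested. With IMQ in WT mice 18.3% of them were called higher and 15.4% lower, beside 14.2% and 14.3% of all genes. In Lcn2-/- mice 32.7% were higher and 10.6% lower, beside 14.1% and 11.2% of all genes. Both WT shares and the lower share in Lcn2-/- mice lay near those of all genes. After IMQ, 11.5% were higher and 3.85% lower in Lcn2-/- than in WT mice (2.19% and 2.6% of all genes). The responses differed for 7 genes upward (6.73%, beside 1.37% of all genes) and 1 downward (0.962%, beside 0.783%). In controls 0 of 104 were called by edgeR, with 9 at an unadjusted p under 0.05, where 6.6% of all genes were. DESeq2 called 1 lower, Id1, beside 56 higher and 49 lower of 34774 genes, low-count genes included. The counts that compare the genotypes depended on single mice. Between the IMQ groups, 12 higher and 4 lower genes became 0 and 0 without WT IMQ replicate 1 or 3 or any Lcn2-/- IMQ mouse, and 23 and 7 without WT IMQ replicate 2. Calls over the whole table moved with them, from 405 higher and 481 lower to at most 1 and 3 in those fits and to 1288 and 1438 without WT IMQ replicate 2. Each call between the IMQ groups named below likewise held, of 6 fits that left out a mouse, only in the one without WT IMQ replicate 2, with adjusted p-values of up to 0.213 in the others. For the difference of the responses, the 7 higher genes became 0 without WT control replicate 1, WT IMQ replicate 1 or 3, Lcn2-/- control replicate 3, or Lcn2-/- IMQ replicate 1 or 2, and 17 without WT IMQ replicate 2. Over all genes tested, 253 higher genes became 2 to 20 and 1015 in these fits. The differences of the responses called below for Col3a1, Eln, Bhlhe40, Ltbp4, Emilin1 and Eng held in 3 of 12 such fits. Those were the fits without WT control replicate 3, WT IMQ replicate 2 or Lcn2-/- control replicate 1, and adjusted p-values reached up to 0.14 in the others.

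Among 27 TGF-beta-responsive genes, 9 were called higher and 3 lower with IMQ in WT mice, and 14 higher and 0 lower in Lcn2-/- mice, with medians of 0.15 and 0.87. Of all genes 14.2% were higher and 14.3% lower in WT mice, and 14.1% and 11.2% in Lcn2-/- mice. The counts of the lists that follow stand beside these same shares. Between the IMQ groups, the fibrillar collagen genes Col1a1, Col1a2 and Col3a1 were called higher in Lcn2-/- mice, beside 2.19% of all genes. The differences were 1.23 ± 0.15 (adjusted p = 0.0215), 1.06 ± 0.17 (adjusted p = 0.0219) and 1.01 ± 0.22 (adjusted p = 0.0349). Col1a1 stood at 2807, 2978 and 2291 CPM in the WT control mice, 1889, 1847 and 2077 in the WT IMQ mice, 2122, 2701 and 2518 in the Lcn2-/- control mice, and 4839, 4506 and 4283 in the Lcn2-/- IMQ mice. It thus fell below all other groups in WT IMQ mice and lay above all others in Lcn2-/- IMQ mice: it fell by 0.47 ± 0.15 with IMQ in WT mice (adjusted p = 0.0333) and rose by 0.89 ± 0.15 in Lcn2-/- mice (adjusted p = 0.00181). The WT fall held in 1 of 6 fits that left out a mouse, the one without WT control replicate 3, with adjusted p-values of up to 0.107 in the others. The difference of the responses was 1.37 ± 0.21 (adjusted p = 0.0195), and it was called in 6 of 12 fits that left out a mouse (1.28 to 1.47); it was lost without WT control replicate 1, WT IMQ replicate 1 or 3, Lcn2-/- control replicate 3, or Lcn2-/- IMQ replicate 1 or 2, at adjusted p-values of up to 0.0787. Col1a2 fell by 0.81 ± 0.17 in WT mice (adjusted p = 0.00404) and differed by 0.50 ± 0.17 in Lcn2-/- mice (adjusted p = 0.0438), a call that was lost in all 6 fits that left out a mouse of either Lcn2-/- group. Its difference of the responses was 1.31 ± 0.23 (adjusted p = 0.0262). That call was lost without WT control replicate 1, WT IMQ replicate 1 or 3, Lcn2-/- control replicate 2 or 3, or Lcn2-/- IMQ replicate 1 or 2. Col3a1 stood at 2451 to 4884, 3993 to 4079, 2557 to 3357 and 7646 to 8897 CPM in the 4 groups and rose by 1.52 ± 0.22 in Lcn2-/- mice (adjusted p = 0.000847). Fibroblast markers moved the same way (median difference between the IMQ groups 0.92, with 2 of 9 called higher, beside 2.19% of all genes). The 2 called were Col6a1 and Col6a2, which are themselves collagen genes. The part of the fibroblast markers in the collagen values was not tested.

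Eln, which encodes elastin, rose in both genotypes, by 0.93 ± 0.17 in WT mice (adjusted p = 0.00178) and 1.96 ± 0.17 in Lcn2-/- mice (adjusted p = 2.85e-05), and these responses differed by 1.03 ± 0.23 (adjusted p = 0.0467). Itga5 (alpha 5 integrin, part of the fibronectin receptor) rose by 1.43 ± 0.20 and 1.51 ± 0.20, and Plaur (the urokinase receptor) by 1.77 ± 0.25 and 1.77 ± 0.25, with differences of the responses of 0.08 ± 0.28 and 0.00 ± 0.35. Bhlhe40, a transcription factor gene, stood at 144.7, 147.6 and 156.8 CPM in the WT IMQ mice and 103.2, 80.5 and 88.2 in the Lcn2-/- IMQ mice. It rose by 1.00 ± 0.13 in WT mice (adjusted p = 0.000187) and differed by 0.19 ± 0.13 in Lcn2-/- mice (adjusted p = 0.283), a difference of responses of -0.81 ± 0.18 (adjusted p = 0.0436). Chosen after their values were seen, Tnc (tenascin C) rose by 4.23 ± 0.73 in WT and 4.08 ± 0.73 in Lcn2-/- mice, and Timp1 (a metalloproteinase inhibitor) by 2.00 ± 0.42 and 3.02 ± 0.44. Their responses differed by -0.15 ± 0.91 (adjusted p = 0.87) and 1.02 ± 0.58 (adjusted p = 0.296). The Lcn2-/- IMQ mice spread widely, at 248.1, 452.5 and 1242 CPM for Tnc and 27.1, 34.8 and 96.7 for Timp1. The WT IMQ mice stood at 38.0, 41.9 and 39.0 CPM for Timp1.

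Of 20 genes for storage and activation of latent TGF-beta, 4 were called higher and 3 lower in WT mice, and 9 higher and 1 lower in Lcn2-/- mice. Lrrc32, which encodes GARP, a cell-surface anchor of latent TGF-beta, rose by 1.45 ± 0.17 in WT mice (adjusted p = 9.72e-05) and 1.59 ± 0.17 in Lcn2-/- mice (adjusted p = 0.00011). Furin, the convertase that cleaves the propeptide, rose by 1.01 ± 0.15 and 0.90 ± 0.15. Ltbp4, a latent TGF-beta binding protein linked to elastic fibres, stood at 232.7, 278.1 and 188.7 CPM in the WT control mice, 85.7, 115.9 and 88.4 in the WT IMQ mice, 185.7, 153.8 and 195.0 in the Lcn2-/- control mice, and 167.0, 171.4 and 139.0 in the Lcn2-/- IMQ mice. It fell by 1.27 ± 0.17 in WT mice (adjusted p = 0.000302), to levels below every other mouse, and differed by -0.16 ± 0.17 in Lcn2-/- mice (adjusted p = 0.509), a difference of responses of 1.11 ± 0.24 (adjusted p = 0.0431). Emilin1, an elastic-fibre glycoprotein that holds back pro-TGF-beta processing, rose by 0.87 ± 0.17 in Lcn2-/- mice (adjusted p = 0.0046), and its responses differed by 1.13 ± 0.25 (adjusted p = 0.0434). Bgn (biglycan, a proteoglycan that binds TGF-beta) stood at 519.8, 723.9 and 510.3 CPM in the WT IMQ mice and 1053, 1276 and 1151 in the Lcn2-/- IMQ mice, a difference of 0.99 ± 0.17 (adjusted p = 0.0219).

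Of 13 receptor and co-receptor genes, 2 were called higher and 0 lower in WT mice, and 4 higher and 3 lower in Lcn2-/- mice. Eng, the endothelial co-receptor endoglin, stood at 64.0, 85.2 and 65.3 CPM in the WT control mice, 74.8, 116.3 and 80.9 in the WT IMQ mice, 68.3, 48.4 and 58.1 in the Lcn2-/- control mice, and 155.9, 158.9 and 177.3 in the Lcn2-/- IMQ mice. It rose by 1.49 ± 0.19 in Lcn2-/- mice (adjusted p = 0.000316) and differed by 0.34 ± 0.18 in WT mice (adjusted p = 0.186), with a difference of responses of 1.15 ± 0.26 (adjusted p = 0.0463). The summed CPM of 8 endothelial markers was 464.2 to 793.7 in WT IMQ and 957.5 to 1003 in Lcn2-/- IMQ mice, and their part in the Eng values was not tested. Bmpr1b, a BMP type I receptor, rose by 1.34 ± 0.34 and 1.21 ± 0.34 from low levels (0.746 to 1.93 CPM in controls). The WT call was lost without WT IMQ replicate 3 (adjusted p = 0.0608). The Lcn2-/- call held in 1 of 6 fits, without Lcn2-/- control replicate 3. Cd109, a co-receptor that lowers TGF-beta signalling in keratinocytes, rose by 0.64 ± 0.19 in WT mice (adjusted p = 0.0257) and differed by 0.03 ± 0.19 in Lcn2-/- mice. The Cd109 call held in 2 of 6 fits, without WT control replicate 3 or WT IMQ replicate 2, with adjusted p-values of up to 0.0789 in the others. The activin receptor genes Acvr1b and Acvr2a differed by 0.35 ± 0.14 and 0.07 ± 0.11 in WT mice, and Acvr2a fell by 0.48 ± 0.12 in Lcn2-/- mice (adjusted p = 0.0116, and 0.0502 without Lcn2-/- IMQ replicate 2).

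Of 18 tested SMAD and regulator genes, 2 were called higher and 2 lower in WT mice, and 2 higher and 3 lower in Lcn2-/- mice. Smurf1, a ubiquitin ligase that targets SMADs and receptors, rose by 0.81 ± 0.10 in WT mice (adjusted p = 0.000208) and 0.37 ± 0.10 in Lcn2-/- mice (adjusted p = 0.0228), and was lower in Lcn2-/- than in WT mice after IMQ (-0.40 ± 0.10, adjusted p = 0.0495). The corepressor gene Skil rose by 0.96 ± 0.16 in WT mice (adjusted p = 0.00134) and differed by 0.35 ± 0.16 in Lcn2-/- mice (adjusted p = 0.132). Its relative Ski differed by -0.28 ± 0.11 in WT mice (adjusted p = 0.0802) and rose by 0.36 ± 0.11 in Lcn2-/- mice (adjusted p = 0.0335). Neither difference of the responses was called (adjusted p = 0.141 for Skil and 0.0557 for Ski). In Lcn2-/- mice the Smurf1 call held only without Lcn2-/- control replicate 1 and the Ski call only without Lcn2-/- IMQ replicate 1, of 6 fits each, with adjusted p-values of up to 0.0929 and 0.117 in the others. Smad9, a BMP-pathway SMAD, fell by 2.56 ± 0.37 and 1.75 ± 0.34 to under 1 CPM, and Smad6, the inhibitory SMAD of the BMP branch, fell by 1.40 ± 0.37 in WT mice (adjusted p = 0.0157), a call lost without WT control replicate 1 or WT IMQ replicate 1 or 3.

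Of 22 activin, BMP and GDF genes and their antagonists, 1 was called higher and 6 lower in WT mice, and 4 higher and 3 lower in Lcn2-/- mice. Grem1 (gremlin 1, a BMP antagonist) rose by 1.58 ± 0.15 in WT mice (adjusted p = 1.96e-05) and 0.81 ± 0.14 in Lcn2-/- mice (adjusted p = 0.00248), and was lower in Lcn2-/- than in WT mice after IMQ (-0.61 ± 0.14, adjusted p = 0.04). Bmp4, a ligand of the dermal papilla and dermis, fell by 2.19 ± 0.25 and 1.77 ± 0.25, and Bmp2 fell by 1.28 ± 0.20 in WT mice (adjusted p = 0.00077) and differed by -0.50 ± 0.20 in Lcn2-/- mice (adjusted p = 0.079). Fst, which encodes follistatin, an antagonist of activins such as the Inhba product, stood at 34.7, 55.4 and 33.5 CPM in the WT IMQ mice and 19.9, 19.1 and 20.4 in the Lcn2-/- IMQ mice, a difference of -1.05 ± 0.19 (adjusted p = 0.0222). Fstl1 was higher in Lcn2-/- than in WT mice after IMQ, by 0.76 ± 0.18 (adjusted p = 0.0415). Of the 4 Id genes, which are BMP targets, Id2 and Id3 fell in WT mice by 1.18 ± 0.21 and 1.44 ± 0.20, Id4 fell by 1.47 ± 0.41 in Lcn2-/- mice (adjusted p = 0.0223), and Id1 rose by 0.37 ± 0.12 and 1.01 ± 0.12. In Lcn2-/- mice Id2 and Id3 differed by -0.25 ± 0.20 (adjusted p = 0.393) and -0.59 ± 0.20 (adjusted p = 0.051). In WT mice Id4 differed by -0.89 ± 0.40 (adjusted p = 0.117). The difference of the responses was called for 0 of the 4. Of 6 fits each, the Id4 call held without Lcn2-/- control replicate 1 or Lcn2-/- IMQ replicate 2, with adjusted p-values of up to 0.0912 in the others. The WT Id1 call held only without WT control replicate 1, with up to 0.12 in the others.

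**Figure D5:**
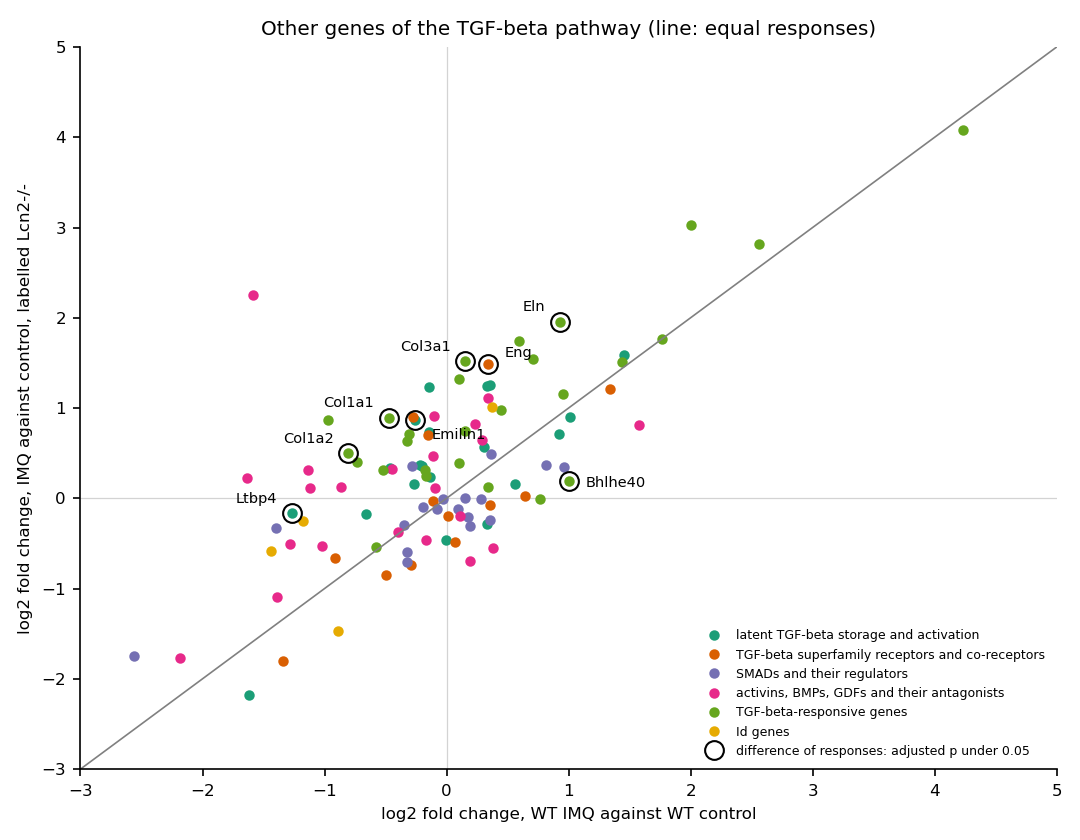
Each point is 1 of 104 other genes of the pathway, with the log2 fold change of IMQ against control in WT mice (horizontal axis) and in Lcn2-/- mice (vertical axis), coloured by list; the line marks equal responses. Circles mark the 8 genes whose responses differed with an adjusted p under 0.05, of which 7 lie above the line and Bhlhe40 below it.

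Over the 12 mice, the 5 genes whose log2 CPM was most like that of Tgfb1 among 15982 genes with a mean of at least 1 CPM were Clta, Epor, Mxra8, Jdp2 and Ifnar1, with Pearson r of 0.986, 0.983, 0.977, 0.975 and 0.969. The mice fall into 4 groups, so r describes group levels more than single mice, and no p is given. Clta (clathrin light chain A) stood at 220.4 to 256.8 CPM in Lcn2-/- IMQ and 96.3 to 107.8 in Lcn2-/- control mice, and Mxra8 (a matrix-remodelling-associated receptor) at 142.1 to 175.2 and 48.1 to 57.3 CPM. Ifnar1 (a subunit of the type I interferon receptor) stood at 84.3 to 105.2 and 52.7 to 62.1 CPM. Among the other listed genes, r with Tgfb1 was 0.88 for Tgfbi, 0.68 for Thbs1, 0.60 for Tgfbr2, 0.52 for Tgfbr1, 0.45 for Ltbp1, 0.29 for Tgfb2, -0.04 for Tgfb3, -0.21 for Smad7 and -0.45 for Inhba, and Tgfbi ranked 371 among the genes compared.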

How the data were processed

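Back skin RNA in 12 libraries was sequenced as paired 150-base reads, and the authors deposited 1 table of raw read counts per Ensembl gene, with no normalization. Per the labels' processing notes, HISAT and the build mm8 were used; the counting program and annotation are not given in the sources used here. Names, positions and exon lengths came from GENCODE M21 (GRCm38), which holds 52073 of the 56923 identifiers (91.5%); the rest hold 0.567% of counts. Groups came from the sample titles, and 0 columns were left out.

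Counts were scaled by TMM and tested with edgeR 4.0.16 (R 4.3.3) by the quasi-likelihood test, with 1 coefficient per group and all 12 mice in 1 model, after filterByExpr (minimum count 10, minimum total 15). A gene was called with a Benjamini-Hochberg adjusted p under 0.05 over 18529 genes. Replicates are libraries with separate titles, and the common biological coefficient of variation was 0.253. Alternatives were DESeq2 1.42.0, RLE size factors, other filters, a fold change above 2, a replicate block, fits restricted to the groups compared, and fits leaving out each mouse; a fit without the pair of controls low in hair follicle markers and, for levels per kb, the longest transcript as length were added after seeing the data. The fit was tested on simulated data. Library totals of 16448226 to 28592110 put 3 counts at 0.105 to 0.182 CPM, which covers counting error only.

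Likeness to Tgfb1 was Pearson's r of log2(CPM + 0.5). The text names the listed genes, Lcn2, from each pathway list the 3 genes with the smallest p for WT IMQ against WT control and the 3 for Lcn2-/- IMQ against WT IMQ, those whose responses differed, and the 5 genes most like Tgfb1. The members, lists and tests were chosen with earlier results of these data known. Figures were drawn with matplotlib 3.10.9.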

Additional observations from a re-analysis of the deposited data

Results flagged for a closer look

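The response to IMQ differed between the genotypes, by the test of that difference (edgeR, adjusted p under 0.05), for 8 genes of the pathway lists. On the log2 scale, as Lcn2-/- minus WT response, the differences were 1.37 for Col1a1, 1.31 for Col1a2, 1.36 for Col3a1, 1.03 for Eln, 1.11 for Ltbp4, 1.13 for Emilin1, 1.15 for Eng and -0.81 for Bhlhe40. With the replicate block, 0 of them were called, and DESeq2 called all 8.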

How the results depend on the processing

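Of the listed genes, the rises of Thbs1 in both genotypes and of Tgfbi in Lcn2-/- mice were called under every alternative run. The 2 falls in WT mice (Tgfb2 and Ltbp1) became 1 (Tgfb2) with RLE size factors, with DESeq2 and with the replicate block, 0 with the compared mice only and with a fold change above 2, and 1 (Tgfb3) without the pair of controls low in hair follicle markers, an alternative chosen after seeing the data. Leaving out a mouse gave 0 to 2. For the difference of the responses, 0 listed genes became 2 with DESeq2 and 0 to 2 when a mouse was left out. Over the whole table, 253 higher genes became 1033 with DESeq2 and 840 without WT control replicate 3, the fit that called 2 listed genes. The WT response of Tgfb1, which was not tested, changed sign to -0.08 without WT control replicate 3 and to -0.22 without WT IMQ replicate 2, in a range of -0.22 to 0.28 over the 6 mice left out.

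Among the 104 other pathway genes, a fold change above 2 left 10 of 19 higher in WT mice, 18 of 34 higher and 5 of 11 lower in Lcn2-/- mice, 6 of 12 higher and 1 of 4 lower between the IMQ groups, and 0 of 1 lower for the difference of the responses. DESeq2 gave 25 higher between the IMQ groups, 1 lower between the controls, and 17 higher and 5 lower for the difference of the responses. Over the whole table DESeq2 called 1187 higher, 49 lower, and 1033 higher and 874 lower in the same order. In the main fit the whole table held 405 higher and 481 lower between the IMQ groups, and 253 and 145 for the difference. The compared mice only gave 22 higher between the IMQ groups (1077 over the whole table). The replicate block gave 5 higher and 1 lower between the IMQ groups (77 and 59 over the whole table). It gave 0 and 0 for the difference of the responses (7 and 3). For that difference, at least 10 counts in every library gave 2 lower (191 over the whole table), and leaving out the pair of controls gave 0 (200). Leaving out a mouse gave 16 to 21 higher and 8 to 18 lower in WT mice (8 without WT IMQ replicate 3, 9 without WT IMQ replicate 1), 22 to 32 higher and 5 to 13 lower in Lcn2-/- mice (5 without Lcn2-/- IMQ replicate 3, and 22 higher without Lcn2-/- control replicate 3 or Lcn2-/- IMQ replicate 2), 0 to 23 higher and 0 to 7 lower between the IMQ groups, and 0 to 17 higher and 0 to 3 lower for the difference of the responses. The cause of these changes was not tested.

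The deviations of same-numbered mice from their group means had a mean correlation of -0.05 over 18 pairs (-0.55 to 0.20). Over 36 pairs with different numbers the mean was 0.03 (-0.34 to 0.54). The sample titles do not say whether the numbers pair the mice, and a mean over pairs cannot settle it.

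With the longest transcript as length, the mean ligand shares in WT control, WT IMQ, Lcn2-/- control and Lcn2-/- IMQ mice were 57.34%, 67.08%, 50.03% and 74.93% for Tgfb1, and in the last 3 groups 7.38%, 11.03% and 6.41% for Tgfb2 and 25.54%, 38.94% and 18.66% for Tgfb3. With total counts only, mean CPM in WT IMQ mice was 11.91 for Tgfb2, 59.39 for Tgfbr1 and 12.98 for Smad7, in Lcn2-/- control mice 38.6 for Tgfb1 and 75.84 for Thbs1, and in Lcn2-/- IMQ mice 67.8 for Ltbp1 and 214.9 for Thbs1. With 3 mice a group, and 148 to 14701 counts per listed gene and library, no listed gene was near the limit of detection, and the number of mice limits the precision.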
